A study of Mus musculus with 9 samples.

Results

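Genes for the electrolyte and water transporters of the colon epithelium were followed in colon RNA of 9 male ICR mice. The 10 genes, taken by symbol from the 21498 symbols in the files, were Slc26a3, Slc9a2, Slc9a3, Scnn1a, Scnn1b, Scnn1g, Aqp4, Aqp8, Slc12a2 and Cftr. All 10 were present, and all 10 had at least 0.1 FPKM (fragments scaled by transcript length and by the size of the library, a unit inferred from the values) in at least 3 samples, as had 15278 genes in all. Mice entered the experiment at 5 weeks of age in 3 groups, and 3 mice of each group were sequenced as separate biological replicates. Control mice received neither AOM, DSS nor antibody, and their samples are labelled normal colorectal mucosa. Mice of the AOM/DSS + IgG Ab group received 10 mg/kg azoxymethane (AOM, a carcinogen of the colon), then 3 cycles of drinking water with dextran sulfate sodium (DSS, an agent toxic to the colon's epithelium) at 2% for 7 days, 1.5% for 5 days and 1.5% for 5 days, and 1.5 mg/kg of a negative control IgG antibody during the DSS cycles. The AOM/DSS + anti-S100a9 Ab group received the same AOM and DSS with 1.5 mg/kg of a rabbit polyclonal antibody against S100a9. All samples are labelled with the end of week 18. The labels call the tissue of both AOM/DSS groups adenocarcinoma, whereas the study's text calls the tissue of the anti-S100a9 Ab group mucosa, so the share of tumor tissue in those samples cannot be told apart from the antibody.

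The colon recovers salt and water at its surface and can secrete chloride from its crypts. Sodium enters across the apical membrane through sodium/hydrogen exchangers (Slc9a2, Slc9a3) that work beside the chloride/bicarbonate exchanger Slc26a3, and through the epithelial sodium channel ENaC, which is built from the subunits encoded by Scnn1a, Scnn1b and Scnn1g. Water follows, and aquaporins (Aqp4 basolaterally, Aqp8 in surface cells) are water channels of these cells. For secretion, the sodium-potassium-chloride cotransporter Slc12a2 loads the cell with chloride from the blood side and the chloride channel Cftr releases it into the lumen.

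The genes did not share a single direction. Between Control and AOM/DSS + IgG Ab, Slc26a3 fell from a mean of 157 ± 62.9 to 13.7 ± 14.4 FPKM (SD, n = 3), and Slc9a3 rose from 2.34 ± 1.61 to 20.3 ± 17.7 FPKM. With anti-S100a9 Ab, Slc26a3, Slc9a2 and Cftr were higher than with IgG Ab, at 164 ± 61.1, 25.4 ± 5.80 and 10.3 ± 1.33 FPKM. Calls are adjusted p-values under 0.05 by Benjamini-Hochberg over all 15278 genes, from limma on log2(FPKM + 0.1). In AOM/DSS + IgG Ab vs Control, 1 of the 10 genes passed in the lower direction, where 3.01% of all genes did, and 1 passed in the higher direction, where 8.18% did. In anti-S100a9 Ab vs IgG Ab, 3 of 10 passed in the higher direction against 6.72% of all genes, and 0 in the lower direction against 14.4%. These 2 comparisons share the IgG Ab samples, so opposite signs in them are no separate evidence.

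**Figure D1:**
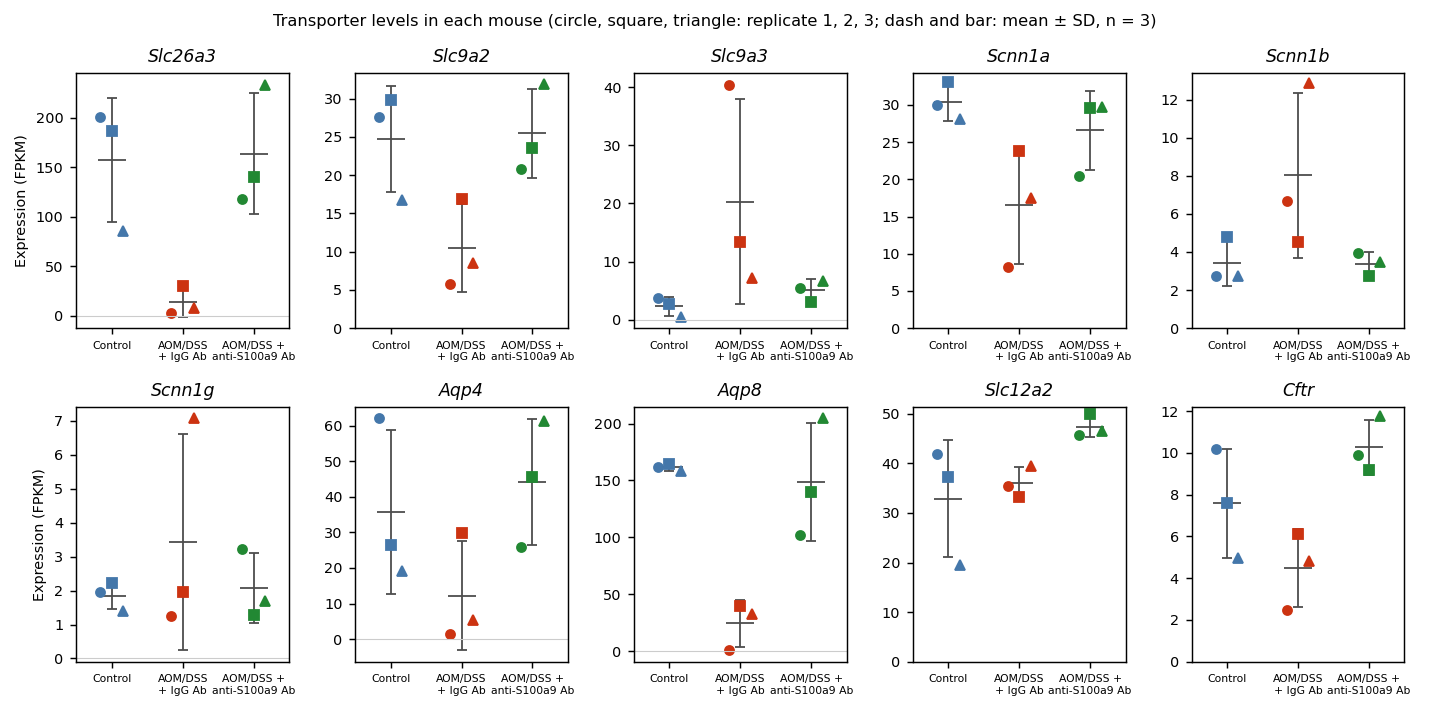
Expression of the 10 transporter genes in FPKM (vertical axes include 0, with a scale of its own for each gene) in each of the 9 mice, by group, with the mean and SD of 3 mice. For Slc26a3 and Aqp8 the 3 AOM/DSS + IgG Ab mice lie below all other mice, for Slc9a3 they lie above all others, and for Slc12a2 the 3 AOM/DSS + anti-S100a9 Ab mice lie highest.

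The tissue label was checked against marker genes. The 10 epithelial markers summed to 6177 to 8222 FPKM in Control, 4688 to 7534 with IgG Ab and 5266 to 6888 with anti-S100a9 Ab, and of all marker lists no member was at 0 in every sample. Marker lists of other cells differed more. Summed Paneth cell markers (5 genes) were 21.1 to 105 FPKM in Control, 767 to 1518 with IgG Ab and 25.9 to 91.1 with anti-S100a9 Ab. Crypt base and cycling cell markers (6 genes) were 47.2 to 53.4, 87.9 to 302 and 43.4 to 52.1 FPKM, and squamous epithelium markers (8 genes) were 2.87 to 3.92, 10.6 to 50.2 and 2.08 to 4.92 FPKM. For these 3 lists the IgG Ab mice lay above both other groups, with an exact permutation p = 0.1 (two-sided), the smallest that 3 against 3 allows. Not all members followed. Of 6 squamous genes tested, 3 passed higher with IgG Ab against Control (Krt13, Krt14, Krt4), as did 8.18% of all genes. Krt5 (limma adjusted p = 0.162), Lor (0.171) and Sbsn (0.907) did not, and Trp63 averaged 0.00899 FPKM in Control and 0.00384 with IgG Ab. Of the 5 Paneth cell genes 4 passed higher, but Mptx2 overlapped between all groups (adjusted p = 0.825). In the crypt list Lgr5, Smoc2 and Axin2 rose with IgG Ab against Control, whereas the proliferation genes did not follow: Mki67 averaged 11.2 FPKM in Control and 9.47 with IgG Ab (limma adjusted p = 0.404) and Top2a 12.4 and 15.7 FPKM (adjusted p = 0.244). Fibroblast markers (5 genes) summed to 346 to 429, 516 to 1635 and 489 to 638 FPKM, and the 4 distal hindgut Hox genes to 291 to 352, 219 to 246 and 250.1 to 314 FPKM. Of the fibroblast genes, Col1a1, Col3a1 and Pdgfra passed higher with IgG Ab against Control, as did 8.18% of all genes. Dcn (limma adjusted p = 0.261) and Lum (0.766) did not. No Hox gene passed in that comparison, and the Hoxd12 mean was higher with IgG Ab (6.80 FPKM) than in Control (4.72 FPKM). The part of these lists in the differences below was not tested. Smooth muscle, immune, endothelial and enteric nerve lists overlapped between Control and IgG Ab, and adipocyte markers were 74.3 to 261 FPKM in Control and at most 45.1 in the AOM/DSS groups. In bulk tissue, fewer cells of a type and less RNA per cell cannot be told apart.

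On GRCm38 (GENCODE M21), Slc26a3 lies at chr12:31390871-31473917, Slc9a2 at chr1:40680574-40769273, Slc9a3 at chr13:74121457-74169442, Scnn1a at chr6:125320659-125344943 and Cftr at chr6:18170687-18322768, all on the plus strand. Chromosome 7 holds 3 of the genes on the plus strand, Scnn1g at chr7:121734479-121768475, Scnn1b at chr7:121865038-121918514 and Aqp8 at chr7:123462291-123468004. Promoter windows of 300 bases, 250 before to 50 after the RefSeq start on GRCm38.p6, were at hand for 6 of the 10 genes. Those of the 2 genes whose means were furthest below Control with IgG Ab, Slc26a3 (chr12:31437969-31438268) and Aqp8 (chr7:123462044-123462343), are printed beside that of Slc9a3 (chr13:74121163-74121462), which had the opposite direction, all on the plus strand from 5′ to 3′. Capitals mark a TATA box (TATAAA).
Slc26a3: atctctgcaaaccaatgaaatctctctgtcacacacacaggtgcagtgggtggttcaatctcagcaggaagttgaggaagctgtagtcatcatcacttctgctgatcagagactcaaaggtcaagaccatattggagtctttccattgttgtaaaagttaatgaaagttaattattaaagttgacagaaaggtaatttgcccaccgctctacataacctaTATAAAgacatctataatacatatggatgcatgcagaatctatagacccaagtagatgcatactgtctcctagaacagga
Aqp8: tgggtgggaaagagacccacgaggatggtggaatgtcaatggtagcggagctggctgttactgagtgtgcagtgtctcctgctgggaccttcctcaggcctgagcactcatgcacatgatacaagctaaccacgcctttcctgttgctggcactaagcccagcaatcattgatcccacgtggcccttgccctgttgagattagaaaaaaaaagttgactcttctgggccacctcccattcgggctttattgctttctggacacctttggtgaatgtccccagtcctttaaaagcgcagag
Slc9a3: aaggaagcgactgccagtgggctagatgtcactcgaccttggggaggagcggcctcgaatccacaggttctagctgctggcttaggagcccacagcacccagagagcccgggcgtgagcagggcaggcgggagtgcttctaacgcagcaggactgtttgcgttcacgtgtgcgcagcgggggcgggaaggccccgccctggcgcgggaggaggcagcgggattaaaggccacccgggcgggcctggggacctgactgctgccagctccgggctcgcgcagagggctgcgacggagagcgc

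The capitals in Slc26a3 begin 30 bases before the start, at base 221 of the window. That start is the start of an annotated transcript 47348 bases inside the gene's outer limits. Both strands of the 6 windows were searched for TATAAA, the core bound by CDX factors (TTTATG), the cAMP response element (TGACGTCA), an HNF4 site (CAAAGTCCA) and the steroid receptor palindrome. Besides the TATA box of Slc26a3, the search found only a CDX core in Scnn1g, 7 bases before its start. Of 32851 mouse promoter windows of the same length, 13.6% held TATAAA, 11.9% the CDX core, 1.79% the cAMP response element, and 0.475% each the HNF4 site and the palindrome. Slc26a3, Aqp8 and Slc9a3 thus share none of these letters, which says nothing about the factors.

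Slc26a3, the chloride/bicarbonate exchanger of surface colonocytes, was among the highest of the 10 genes in Control tissue. Its levels in replicates 1, 2 and 3 were 200.1, 186 and 85.1 FPKM in Control, 2.79, 29.9 and 8.26 FPKM with IgG Ab, and 118, 139.6 and 233 FPKM with anti-S100a9 Ab. Every IgG Ab mouse lay below every mouse of the other groups, and the other groups overlapped. The IgG Ab mean was 8.69% of the Control mean. On the log2(FPKM + 0.1) scale Slc26a3 fell by 4.03 with IgG Ab against Control (SE 0.74, limma adjusted p = 0.0124). It was 4.12 higher with anti-S100a9 Ab than with IgG Ab (SE 0.74, limma adjusted p = 0.0115). Leaving out each sample in turn moved the first difference between -4.90 and -3.21, and without Control replicate 2 its adjusted p was 0.0516. The second stayed between 3.31 and 5.00, with adjusted p-values of 0.00286 to 0.0477 over the 9 omissions.

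The sodium/hydrogen exchangers Slc9a2 and Slc9a3 had differences of opposite sign. Slc9a2 measured 27.7, 29.8 and 16.8 FPKM in Control, 5.82, 16.9 and 8.57 FPKM with IgG Ab, and 20.8, 23.6 and 31.95 FPKM with anti-S100a9 Ab. The lowest Control mouse and the highest IgG Ab mouse were level, and the difference of -1.33 (SE 0.38) did not pass, with a limma adjusted p of 0.0553. It passed without Control replicate 3 (-1.59, adjusted p = 0.0474) and without IgG Ab replicate 2 (-1.75, adjusted p = 0.00995). With anti-S100a9 Ab all 3 mice were above the IgG Ab mice, and Slc9a2 rose by 1.39 on the log2 scale (SE 0.38, limma adjusted p = 0.0347). That call was lost on leaving out IgG Ab replicate 1 or 3 or any of the 3 anti-S100a9 Ab mice, with adjusted p-values up to 0.103.

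Slc9a3, the exchanger that takes up most sodium in the small intestine and proximal colon, was scarce in Control tissue. Its levels were 3.70, 2.77 and 0.553 FPKM in Control, 40.4, 13.3 and 7.26 FPKM with IgG Ab, and 5.49, 3.13 and 6.71 FPKM with anti-S100a9 Ab. All IgG Ab mice lay above all others, and replicate 1 was the highest. Slc9a3 rose by 3.05 on the log2 scale with IgG Ab (SE 0.76, 95% confidence interval 1.32 to 4.77, limma adjusted p = 0.0365). This call was fragile: it held in 1 of 9 fits that left out a sample (IgG Ab replicate 3, adjusted p = 0.0369), and in the other 8 the adjusted p was 0.0506 to 0.0952 with differences of 2.27 to 3.54. The step from IgG Ab to anti-S100a9 Ab was -1.67 (-3.40 to 0.05), with an adjusted p of 0.137.

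Within a sample, the ratio of Slc9a3 to Slc9a2 was 0.134, 0.0930 and 0.0329 in Control, 6.94, 0.788 and 0.847 with IgG Ab, and 0.264, 0.133 and 0.210 with anti-S100a9 Ab. Setting levels of different genes side by side takes the values to be FPKM, scaled by transcript length, which no source used here states. On that reading, Slc9a2 had the higher level of the pair in 8 of the 9 mice, and Slc9a3 only in IgG Ab replicate 1.

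The ENaC subunits differed in sign as well. Scnn1a, the alpha subunit, measured 30.0, 33.0 and 28.1 FPKM in Control, 8.26, 23.8 and 17.4 FPKM with IgG Ab, and 20.5, 29.5 and 29.8 FPKM with anti-S100a9 Ab. The IgG Ab mice lay below all Control mice, while the AOM/DSS groups overlapped. The difference from Control was -1.0 (SE 0.34, -1.78 to -0.22) with a limma adjusted p of 0.0928.

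Scnn1b, the beta subunit, had the opposite sign, with 2.75, 4.80 and 2.72 FPKM in Control, 6.67, 4.55 and 12.9 FPKM with IgG Ab, and 3.94, 2.73 and 3.45 FPKM with anti-S100a9 Ab. Its IgG Ab mice overlapped Control but lay above all anti-S100a9 Ab mice. The differences were 1.13 (SE 0.38, limma adjusted p = 0.0906) for IgG Ab minus Control and -1.11 (SE 0.38, adjusted p = 0.0669) for anti-S100a9 Ab minus IgG Ab. Scnn1g, the gamma subunit, measured 1.95, 2.21 and 1.41 FPKM in Control, 1.25, 1.96 and 7.08 FPKM with IgG Ab, and 3.23, 1.27 and 1.71 FPKM with anti-S100a9 Ab. All groups of Scnn1g overlapped, and IgG Ab replicate 3 stood above the other 8 mice.

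Relative to the alpha subunit, Scnn1b was 0.0917, 0.145 and 0.0968 in Control, 0.808, 0.191 and 0.737 with IgG Ab, and 0.192, 0.0923 and 0.116 with anti-S100a9 Ab. The Scnn1g to Scnn1a ratio was 0.05004 to 0.0670 in Control, 0.0822 to 0.406 with IgG Ab and 0.0431 to 0.158 with anti-S100a9 Ab. In all 9 mice the alpha subunit had the highest value of the 3, on the same reading of the unit, and the beta to alpha ratio of IgG Ab replicates 1 and 3 was far above that of the other 7 mice.

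The water channel Aqp8 was about as abundant as Slc26a3 in Control and, relative to its mean, varied least there among the 10 genes. Its levels were 162, 165 and 158 FPKM in Control, 1.08, 39.9 and 32.7 FPKM with IgG Ab, and 102, 139.8 and 205 FPKM with anti-S100a9 Ab. The IgG Ab mice lay below all other mice, and IgG Ab replicate 1 was by far the lowest. The mean with IgG Ab was 15.2% of the Control mean. With such a spread, the differences of -3.81 (SE 1.13, limma adjusted p = 0.0624) against Control and 3.63 (SE 1.13, adjusted p = 0.0508) for anti-S100a9 Ab minus IgG Ab did not pass. Without IgG Ab replicate 1 they were smaller, at -2.16 and 1.98, and passed (adjusted p = 0.00372 and 0.00717). They also passed without IgG Ab replicate 2, at -4.70 (adjusted p = 0.0305) and 4.52 (adjusted p = 0.0273).

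Aqp4 measured 62.1, 26.3 and 19.1 FPKM in Control, 1.56, 29.7 and 5.40 FPKM with IgG Ab, and 26.0, 45.5 and 61.2 FPKM with anti-S100a9 Ab. IgG Ab replicate 2 lay within the Control range, and the other IgG Ab mice lay below all other samples. The differences were -2.29 (SE 0.92, limma adjusted p = 0.138) against Control and 2.69 (SE 0.92, adjusted p = 0.0660) for anti-S100a9 Ab minus IgG Ab. Without IgG Ab replicate 2 both passed, at -3.39 (adjusted p = 0.0138) and 3.79 (adjusted p = 0.00890).

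On the secretory side, all IgG Ab mice lay within the Control range of Slc12a2. The cotransporter measured 41.9, 37.3 and 19.5 FPKM in Control, 35.4, 33.2 and 39.6 FPKM with IgG Ab, and 45.8, 49.9 and 46.6 FPKM with anti-S100a9 Ab. IgG Ab minus Control was 0.20 (SE 0.26, -0.38 to 0.78), an interval that leaves room for a modest change either way. The anti-S100a9 Ab mice lay above all mice of both other groups, with differences of 0.40 (SE 0.26, limma adjusted p = 0.272) against IgG Ab and 0.60 (SE 0.26, adjusted p = 0.309) against Control. Without Control replicate 3, the lowest of the 9 mice, the first of these passed (adjusted p = 0.0333).

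Cftr, the apical chloride channel, measured 10.2, 7.59 and 4.98 FPKM in Control, 2.45, 6.12 and 4.83 FPKM with IgG Ab, and 9.87, 9.17 and 11.7 FPKM with anti-S100a9 Ab. Control and IgG Ab overlapped, at a difference of -0.79 (SE 0.36, limma adjusted p = 0.179). All anti-S100a9 Ab mice were above the IgG Ab mice, and Cftr rose by 1.27 on the log2 scale (SE 0.36, limma adjusted p = 0.0377). That call was lost without Control replicate 2, IgG Ab replicate 1 or 3 or any anti-S100a9 Ab mouse (adjusted p up to 0.106). It was also lost with the replicate number as a block (adjusted p = 0.0580).

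The within-sample ratio of the absorptive exchanger Slc26a3 to the secretory channel Cftr was 19.6, 24.6 and 17.1 in Control, 1.14, 4.89 and 1.71 with IgG Ab, and 12.0, 15.2 and 19.8 with anti-S100a9 Ab. The IgG Ab mice lay below all others, and the other groups overlapped.

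**Figure D2:**
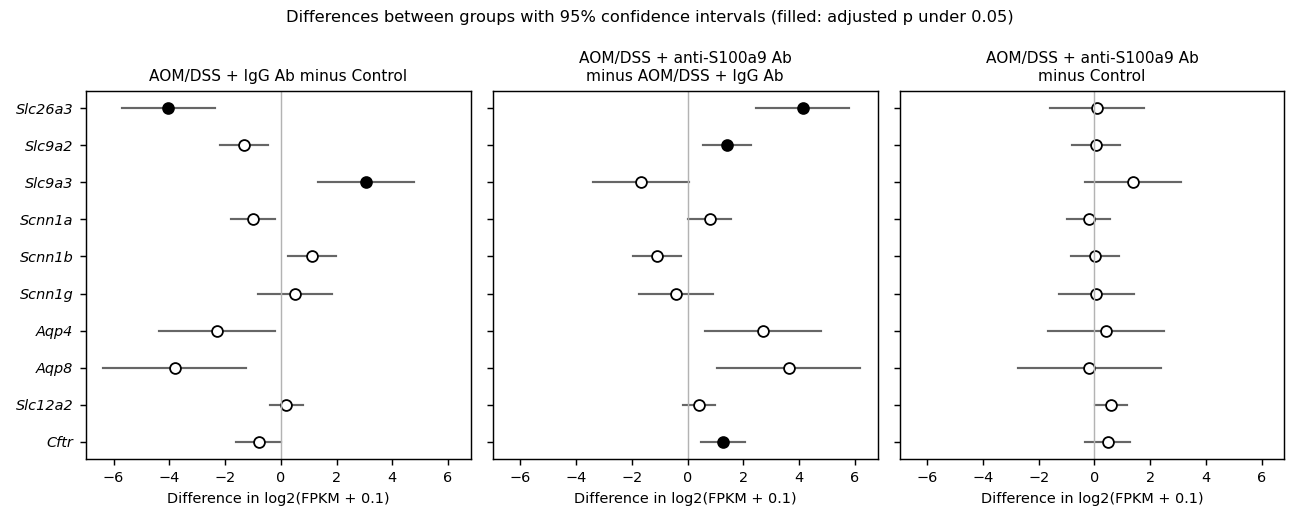
Differences in log2(FPKM + 0.1) of the 10 genes (horizontal axes) with 95% confidence intervals in the 3 comparisons, filled where the limma adjusted p is under 0.05. Slc26a3 and Slc9a3 are filled in the first panel, Slc26a3, Slc9a2 and Cftr in the second, and none in the third.

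Counting mice instead of tests, IgG Ab lay wholly below Control for 3 of the 10 genes (Slc26a3, Scnn1a, Aqp8), where 10.2% of all genes did, and wholly above for 1 (Slc9a3), where 20.7% did. Anti-S100a9 Ab lay wholly above IgG Ab for 5 genes (Slc26a3, Slc9a2, Aqp8, Slc12a2, Cftr) against 18.5% of all genes, and wholly below for 2 (Slc9a3, Scnn1b) against 28.5%. The study's own thresholds were an unadjusted p under 0.05 with more than a 2-fold change. Here they were applied to limma differences in log2(FPKM + 0.1), not to the study's DESeq test. By them, 5 genes were lower with IgG Ab than in Control (Slc26a3, Slc9a2, Scnn1a, Aqp4, Aqp8), as were 5.19% of all genes. In the higher direction were 2 (Slc9a3, Scnn1b), against 8.43% of all genes. By the same thresholds 5 were higher with anti-S100a9 Ab than with IgG Ab (Slc26a3, Slc9a2, Aqp4, Aqp8, Cftr; 7.64% of all genes) and Scnn1b was lower (8.38%). The median difference of the 10 genes was -0.89 for IgG Ab minus Control and 1.03 for anti-S100a9 Ab minus IgG Ab, against 0.09 and -0.06 over all genes tested.

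Against Control, the anti-S100a9 Ab group had 0 of the 10 genes past the limma adjusted p of 0.05 in either direction. Over all genes that comparison called 1 gene lower and 1 higher (0.00655% each), and 2439 of 15278 genes had an unadjusted p under 0.05, among them Slc12a2 alone of the 10. Slc12a2 was the only gene of the 10 whose anti-S100a9 Ab mice lay wholly above Control (17.3% of all genes), and 0 lay wholly below (13.7%). None of the 10 genes passed the study's thresholds as applied to limma here, where 0.864% of all genes passed in the lower and 2.28% in the higher direction. The intervals remained wide, so equal levels are not shown. For Slc26a3 the difference was 0.09 (-1.59 to 1.77), for Aqp8 -0.18 (-2.74 to 2.38), for Aqp4 0.40 (-1.68 to 2.49) and for Slc9a3 1.37 (-0.35 to 3.09). The narrowest interval, that of Slc12a2, ran from 0.02 to 1.18. Those of Slc9a2 (-0.80 to 0.92), Scnn1a (-0.98 to 0.57), Scnn1b (-0.85 to 0.88), Scnn1g (-1.26 to 1.40) and Cftr (-0.32 to 1.29) all included 0.

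The 3 IgG Ab mice were unlike each other in these genes. Replicate 1 had the lowest level of the 3 for 7 genes (Slc26a3, Slc9a2, Scnn1a, Scnn1g, Aqp4, Aqp8, Cftr) and the highest for Slc9a3, while replicate 2 had the highest for 6 (Slc26a3, Slc9a2, Scnn1a, Aqp4, Aqp8, Cftr). Among the IgG Ab mice, replicate 1 also had the highest crypt base and cycling (302 FPKM) and squamous (50.2 FPKM) markers and the lowest sum of every other marker list. The lowest sums included epithelial (4688 FPKM), smooth muscle (480.4 FPKM), immune (402 FPKM), fibroblast (516 FPKM), Paneth cell (767 FPKM) and distal hindgut (219 FPKM) markers. The total over all rows was also lowest in replicate 1 of these mice (329518 FPKM). Krt20, a keratin of surface colonocytes, measured 278, 294 and 236 FPKM in Control, 76.5, 227 and 172 FPKM with IgG Ab, and 266, 374 and 282 FPKM with anti-S100a9 Ab. Its IgG Ab mice were the lowest, in the same order as for Slc26a3 and Aqp8, with a limma adjusted p of 0.137 against Control and 0.0625 for anti-S100a9 Ab vs IgG Ab. The epithelial list held both directions, with a higher mean in IgG Ab than in Control for 3 of its 10 genes. Krt18 rose from a mean of 220 FPKM in Control to 509 FPKM with IgG Ab (limma adjusted p = 0.0256), the only gene of that list to pass. Epcam and Cdh1 means with IgG Ab were 105% and 102% of Control. When each sample was shifted to a common mean of the epithelial list, Slc26a3 (-3.87, adjusted p = 0.00533), Slc9a3 (3.21, adjusted p = 0.0344) and Aqp8 (-3.64, adjusted p = 0.0390) passed against Control. Without replicate 1 the differences from Control were -3.21 for Slc26a3 (adjusted p = 0.0176), 2.37 for Slc9a3 (adjusted p = 0.0952) and -2.16 for Aqp8 (adjusted p = 0.00372). Without replicate 2, 6 of the 10 genes passed against Control (Slc26a3, Slc9a2, Scnn1a, Scnn1b, Aqp4, Aqp8), and these with Cftr, 7 in all, passed for anti-S100a9 Ab vs IgG Ab. In these fits 14.3% and 22.8% of all genes passed in either direction, against 11.2% and 21.1% with all 9 samples.

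**Figure D3:**
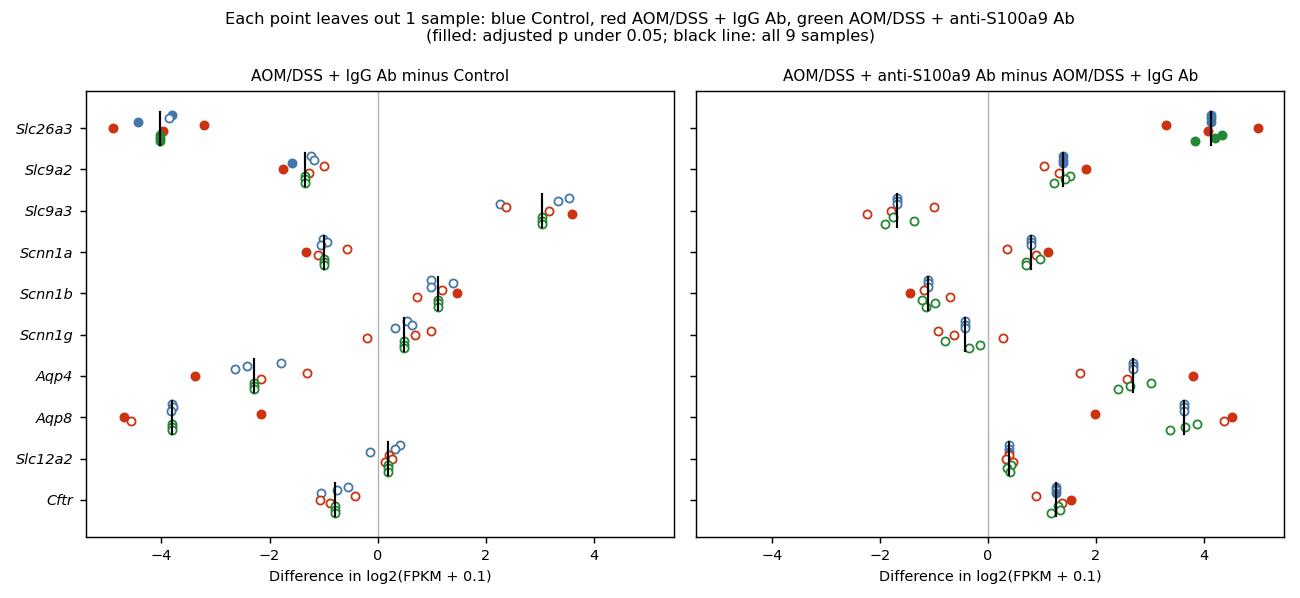
Differences in log2(FPKM + 0.1) (horizontal axes) of the 10 genes when 1 of the 9 samples is left out, coloured by the group of the omitted sample and filled where the limma adjusted p is under 0.05, with a black line for all 9 samples. Omitting an AOM/DSS + IgG Ab sample (red) moved the points furthest for Slc26a3 and Aqp8, and Slc26a3 stayed between -4.90 and -3.21 against Control.

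Transporters that work beside these genes were read from 6 further lists. Of 16 apical sodium, chloride and bicarbonate transporters, 5 fell with IgG Ab against Control (Ano1, Slc16a1, Slc20a1, Slc26a2, Slc4a4), Slc9a4 rose and 10 did not pass, and the median difference was -0.83. Over all genes 3.01% passed in the lower and 8.18% in the higher direction. With anti-S100a9 Ab against IgG Ab, 7 of these 16 rose (Ano1, Clca4a, Slc16a1, Slc26a2, Slc4a4, Slc4a7, Slc5a8), Slc9a4 fell and 8 did not pass (median 0.84), where 6.72% of all genes rose and 14.4% fell. The same shares apply to the counts of the other lists, which have 5 to 11 tested genes each. Slc26a2, the sulfate exchanger of the same family as Slc26a3, measured 68.1, 65.8 and 35.2 FPKM in Control, 8.03, 27.9 and 17.8 FPKM with IgG Ab, and 61.9, 63.1 and 106 FPKM with anti-S100a9 Ab. Its IgG Ab mice lay below all others, and it fell by 1.76 against Control (limma adjusted p = 0.0398) and was 2.23 higher with anti-S100a9 Ab than with IgG Ab (adjusted p = 0.0158). Slc4a4, a basolateral sodium-bicarbonate cotransporter, fell by 2.24 (limma adjusted p = 0.0192) and was 2.02 higher with anti-S100a9 Ab (adjusted p = 0.0214). Slc5a8, a sodium-coupled carrier of short-chain fatty acids, did not pass against Control at -2.43 (limma adjusted p = 0.0685) and was 2.76 higher with anti-S100a9 Ab (adjusted p = 0.0337).

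Slc9a4, a basolateral exchanger of the same family as Slc9a2 and Slc9a3 and best known from the stomach, was listed at 0, 0.0110 and 0.0419 FPKM in Control, 7.86, 0.957 and 2.11 FPKM with IgG Ab, and 0.152, 0.0684 and 0.0542 FPKM with anti-S100a9 Ab. As for Slc9a3, every IgG Ab mouse lay above every other mouse, and replicate 1 was the highest. On the log2(FPKM + 0.1) scale, where the added 0.1 sets the size for genes near 0, Slc9a4 was 4.51 higher with IgG Ab than in Control (limma adjusted p = 0.00430) and 3.82 above anti-S100a9 Ab (a difference of -3.82, adjusted p = 0.00923). Of 5 sodium and proton pump genes, Atp4a, which stayed under 1 FPKM, rose with IgG Ab against Control. Atp4a fell and Atp12a rose with anti-S100a9 Ab against IgG Ab. Atp12a, the colonic hydrogen/potassium pump, measured 71.8, 64.1 and 43.4 FPKM in Control, 3.39, 31.0 and 16.6 FPKM with IgG Ab, and 58.4, 93.5 and 109 FPKM with anti-S100a9 Ab. The IgG Ab mice had the lowest Atp12a, with a limma adjusted p of 0.0646 against Control and 0.0253 for anti-S100a9 Ab minus IgG Ab (2.79).

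Of 5 potassium channel genes tested (of 6 listed), Kcnk5 fell by 2.30 with IgG Ab against Control (limma adjusted p = 0.0126). With anti-S100a9 Ab against IgG Ab, Kcnk5 rose by 1.94 (adjusted p = 0.0194) and Kcnma1, the large-conductance calcium-activated channel, by 2.06 (adjusted p = 0.0347). Among 5 other aquaporins tested (of 6 listed) only Aqp5, a water channel of glands and airways, passed. Aqp5 measured 0.114, 0.0353 and 0.0704 FPKM in Control, 1.08, 0.691 and 2.77 FPKM with IgG Ab, and 0.0504, 0 and 0 FPKM with anti-S100a9 Ab. Its direction was thus opposite to that of Aqp8, at a level far lower, with differences of 3.03 (limma adjusted p = 0.00636) and -3.60 (adjusted p = 0.00439).

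Genes that control ENaC (8 listed) included 0 that passed in limma between IgG Ab and Control, at a median difference of -0.95. An unadjusted p under 0.05 was reached by 6 of these 8, and by 4507 of 15278 genes in all. With anti-S100a9 Ab against IgG Ab, 3 rose. These were the mineralocorticoid receptor Nr3c2 (1.74, limma adjusted p = 0.0266), the glucocorticoid receptor Nr3c1 (1.34, adjusted p = 0.0154) and the scaffold Cnksr3 (0.81, adjusted p = 0.0316). Of 11 scaffold and secretagogue signalling genes, Guca2a and Slc9a3r1 fell and Prkg2 rose with IgG Ab against Control, and Pdzk1 and Prkg2 fell and Ezr rose with anti-S100a9 Ab against IgG Ab. The latter, 2 of 11 lower and 1 of 11 higher, are near the shares of all genes (14.4% and 6.72%) and no result about the list. Slc9a3r1, the scaffold that holds Slc9a3 and Cftr at the apical membrane, fell by 0.99 (limma adjusted p = 0.0288) while Slc9a3 itself rose. Prkg2, the cGMP-dependent kinase that regulates Slc9a3 and Cftr, measured 0.0650, 0.0681 and 0.0934 FPKM in Control, 12.1, 2.94 and 3.24 FPKM with IgG Ab, and 0.533, 0.160 and 0.200 FPKM with anti-S100a9 Ab. As for Slc9a3 and Slc9a4, IgG Ab replicate 1 was the highest mouse. Prkg2 was 4.83 above Control (limma adjusted p = 0.00178), a size that rests on the added 0.1 FPKM because its Control values lay below that. Guca2a, which encodes guanylin, a hormone that acts on this kinase's pathway, measured 1817, 1671 and 2334 FPKM in Control, 94.1, 725 and 573 FPKM with IgG Ab, and 576, 479.8 and 841 FPKM with anti-S100a9 Ab. It fell by 2.50 with IgG Ab (limma adjusted p = 0.0476), and with anti-S100a9 Ab it stood 1.64 below Control (a difference of -1.64, adjusted p = 0.303) although its mice did not overlap Control. In none of the 6 lists did a gene pass between anti-S100a9 Ab and Control.

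**Figure D4:**
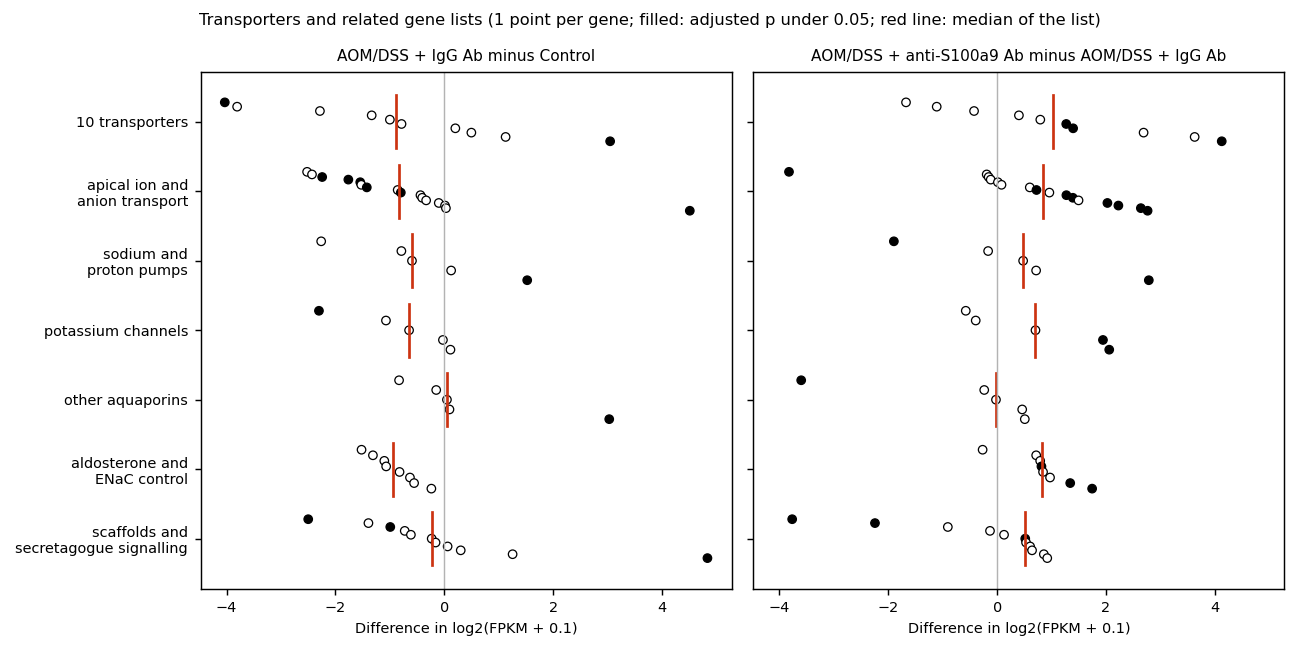
Differences in log2(FPKM + 0.1) (horizontal axes) of the 10 transporters and of 6 related gene lists, 1 point per gene, filled where the limma adjusted p is under 0.05, with the median of each list as a red line. In the left panel (AOM/DSS + IgG Ab minus Control) the medians lie at or below 0 except that of other aquaporins (0.05), and Slc9a4, Slc9a3, Aqp5 and Prkg2 stand at the right.

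The genes whose levels most resembled those of Slc26a3 were listed over the 9 samples, among 13085 genes, as a description. These were Tep1, the citrate synthase gene Cs and Entpd5, with Pearson r of 0.990, 0.989 and 0.988 on the log2(FPKM + 0.1) scale. The 9 points share the same 3 groups and libraries.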

How the data were processed

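RNA from colon tissue of 9 mice was sequenced by the authors after a check of RNA integrity. The submitters' processing notes name TopHat, Cufflinks, HTSeq, DESeq and GRCm38, without versions. The authors deposited expression values, taken here as FPKM, in a table for each mouse (21544 rows, each with a gene symbol). No source used here names the unit, which was inferred from decimal values whose totals differ between samples. No counts were given, so the depth of each sample is unknown, no counting error can be given, and precision comes from the 3 mice per group.

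Rows with a repeated symbol (46) were summed to 21498 symbols. The 15278 genes that reached 0.1 FPKM in 3 or more samples were analyzed as log2(FPKM + 0.1) with limma 3.58.1 in R 4.3.3, as a linear model of all 9 samples with empirical Bayes moderation and an intensity trend (8.87 degrees of freedom), and p-values were adjusted by Benjamini-Hochberg over all these genes. The authors' DESeq test was not repeated, because it needs counts. Replicates are labelled as biological replicates, and no pair of files held the same values. The script was tested on simulated data. The members and gene lists were chosen with earlier results of these data known. From each gene list, genes were named that had an adjusted p under 0.05 in any comparison and reached a group mean of 1 FPKM, at most 4 a list by the size of their difference in AOM/DSS + IgG Ab vs Control. Other list members are named only beside counts, and some results covered by the rules are not reported here. Promoter windows are from RefSeq on GRCm38.p6 and gene positions from GENCODE M21. Proteins were not compared. Tables and figures were made with pandas 2.3.3, numpy 2.4.6, scipy 1.17.1 and matplotlib 3.10.9 in Python 3.11.15.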

Additional observations from a re-analysis of the deposited data

How the results depend on the processing

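The limits are 3 mice a group, a unit read from the values, and unknown depth. Low values, such as those of Slc9a4 and Aqp5 and of Prkg2 in Control, thus rest on the added 0.1 FPKM. Of the 10 transporters, 2 passed for AOM/DSS + IgG Ab vs Control, 3 for anti-S100a9 Ab vs IgG Ab and 0 for AOM/DSS + anti-S100a9 Ab vs Control. With only the 2 compared groups in the fit the first count was 1, since Slc9a3 was lost (adjusted p = 0.0928). Of all genes 3.95% passed in that fit, against 11.2% with all 9 samples. At an unadjusted p under 0.05 with more than a 2-fold change the counts were 7 and 6. By that rule 5.19% of all genes were lower and 8.43% higher in the first comparison, and 8.38% and 7.64% in the second. Leaving out 1 sample gave 0 to 6 (0 without Control replicate 2, 6 without AOM/DSS + IgG Ab replicate 2) and 1 to 7 (1 without AOM/DSS + IgG Ab replicate 3 or any anti-S100a9 Ab sample, 7 without AOM/DSS + IgG Ab replicate 2), and 0 throughout for the third. The share of all genes called moved too. For the first comparison it was 3.88% without Control replicate 2 and 14.3% without IgG Ab replicate 2. For the second it was 21.1% with all 9 samples and 10% without IgG Ab replicate 3. It was 5.2%, 3.39% and 7.33% without anti-S100a9 Ab replicates 1, 2 and 3, and 22.8% without IgG Ab replicate 2. The cause was not tested. Deviations from the group means had r of -0.187 to 0.249 between samples with the same replicate number. Between different numbers r was -0.267 to 0.190. With 3 mice a group such values cannot decide whether samples with the same number shared their handling. With the replicate number as a block the counts stayed at 2 and 3, with Cftr replaced by Aqp8 (adjusted p = 0.0420) in the second.

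Other pseudocounts, filters, scalings and the fit without an intensity trend changed the calls of no transporter but Aqp8, which passed for anti-S100a9 Ab vs IgG Ab with a pseudocount of 1 (adjusted p = 0.0416), quantile normalization (0.0441) and scaling to the epithelial list (0.0383), and for IgG Ab vs Control with that scaling (0.0390). Scaling to the epithelial list moved the median of all genes for IgG Ab minus Control from 0.09 to 0.26. Signs turned for differences that had not passed. For anti-S100a9 Ab minus Control, Scnn1b was -0.0123 under median-of-ratios scaling and -0.13 under quantile normalization, Scnn1g -0.0654 and Aqp8 0.0882 under quantile normalization. Over omitted samples that comparison ranged from -0.30 to 0.31 for Slc26a3, -0.20 to 0.21 for Slc9a2, -0.12 to 0.28 for Scnn1b, -0.29 to 0.35 for Scnn1g and -0.44 to 0.0654 for Aqp8. IgG Ab minus Control ranged from -0.21 to 1.00 for Scnn1g and -0.14 to 0.41 for Slc12a2, and anti-S100a9 Ab minus IgG Ab from -0.93 to 0.28 for Scnn1g.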
